A study of Saccharomyces cerevisiae with 24 samples.

Results

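The 51 genes described here are the RPL1 to RPL28 genes of budding yeast, which encode proteins of the large (60S) ribosomal subunit. They were chosen by name, as the open reading frames of the RPL1 to RPL28 families with both copies where a family has 2, and they are 51 of 6205 open reading frames on the arrays. They form 23 pairs of duplicate genes, copies A and B, and 5 genes with 1 copy (RPL3, RPL5, RPL10, RPL25 and RPL28). Each array compared total RNA of 2 strains grown in YEPD, a rich glucose medium, in the dyes Cy5 and Cy3. The compared strains were UCC6406, with the dot4-1 allele under a 6Myc tag, UCC6407, with the dot4-5 allele under the same tag, UCC6435, labelled as a dot4 null, and UCC6432, with DOT4 lacking the tag. Each was set against UCC6408, whose DOT4 carries the 6Myc tag and which the labels call wild type. DOT4 is listed as UBP10 (YNL186W) in the reference annotation and encodes an enzyme that removes ubiquitin from histone H2B. The lesions of the dot4-1 and dot4-5 alleles, the marker genotypes, the array type and the number of clones behind each strain are not stated in the labels.

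Ribosomal protein genes are among the most strongly transcribed genes of a growing yeast cell. Most of them bind the factors Rap1, Fhl1 and Ifh1 at their promoters and are driven by growth signals that run through the TOR kinase, protein kinase A and Sch9. Most yeast families kept a pair of genes after an ancient genome duplication, and the copies encode identical or nearly identical proteins. The proteins join the ribosomal RNA during assembly in the nucleolus, nucleus and cytoplasm, several of them with the help of a dedicated chaperone or after a placeholder protein leaves their site.

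Each strain had 3 numbered sets of 2 arrays with the dyes exchanged, which makes 6 arrays per strain and 24 in all, and the number of arrays limits the precision. Every value below is a log2 ratio of a strain over DOT4-6Myc, with each array centred on its median and the 2 dye orientations of a set averaged. The direction of the ratios is likely, not certain. Read in the order of the labels, 6 of 6 arrays of the strain labelled null gave more UBP10 transcript there than in DOT4-6Myc, so all arrays were turned. Under the order of the labels every sign below would be exchanged. In this direction UBP10 was at -4.48, -4.48 and -5.11 in the 3 sets of the strain labelled null, a mean of -4.69 ± 0.367 (SD, n = 3; 25.8-fold lower, adjusted p = 1.22e-11). UBP10 was at -0.62 in dot4-1 (adjusted p = 7.61e-05), -0.24 in dot4-5 (adjusted p = 0.817) and -0.17 in untagged DOT4 (adjusted p = 0.202). The test of a strain is its mean over 3 sets against 0, which leaves out the spread of DOT4-6Myc itself. The labels do not say whether the sets were separate cultures, so a p-value measures the spread among sets, and that spread may be technical. It is estimated from the sets of all 4 strains together. The 2 orientations were averaged before the fit, so the gap between them, given below, is no part of the standard error or the p-value.

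Most RPL1 to RPL28 genes were lower in dot4-1 than in DOT4-6Myc. There 37 of 51 fell, 7 rose and 7 did not pass an adjusted p of 0.05, at a median of -0.28 and a range of -0.58 to 0.26, while 37.5% of the 6195 genes tested fell and 35.9% rose (73.4% in all) around a median of -0.0063. The strain labelled null had 28 that fell, 10 that rose and 13 that did not pass, at a median of -0.13 and a range of -0.58 to 0.29, beside 32.7% of all genes falling and 30.7% rising (63.4% in all). In untagged DOT4, 37 fell, 0 rose and 14 did not pass, beside 14.6% of all genes falling and 11.2% rising (25.8% in all). Here all 51 means lay below 0, in a narrow range of -0.21 to -0.033 around a median of -0.16. In dot4-5, 0 of 51 passed either way with limma, 0 had an unadjusted p under 0.05, and the median was 0.015, beside 0.92% of all genes rising and 0.113% falling (1.03% in all). The spread among the genes was thus wider in dot4-1 and the strain labelled null, where the SD over the 51 means was 0.230 and 0.189, than in untagged DOT4 and dot4-5, where it was 0.0427 and 0.0339. Over all 6195 genes the SD was larger in each strain, at 0.377, 0.319, 0.165 and 0.0878 in the same order. The median over the genes was at -0.26, -0.27 and -0.31 in sets 1, 2 and 3 of dot4-1, at -0.078, -0.11 and -0.19 in those of the strain labelled null, at -0.16, -0.21 and -0.10 in those of untagged DOT4, and at 0.0040, 0.048 and -0.0085 in those of dot4-5. Each array was centred on its own median, so fewer of these transcripts per cell and more of the others cannot be told apart.

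**Figure D1:**
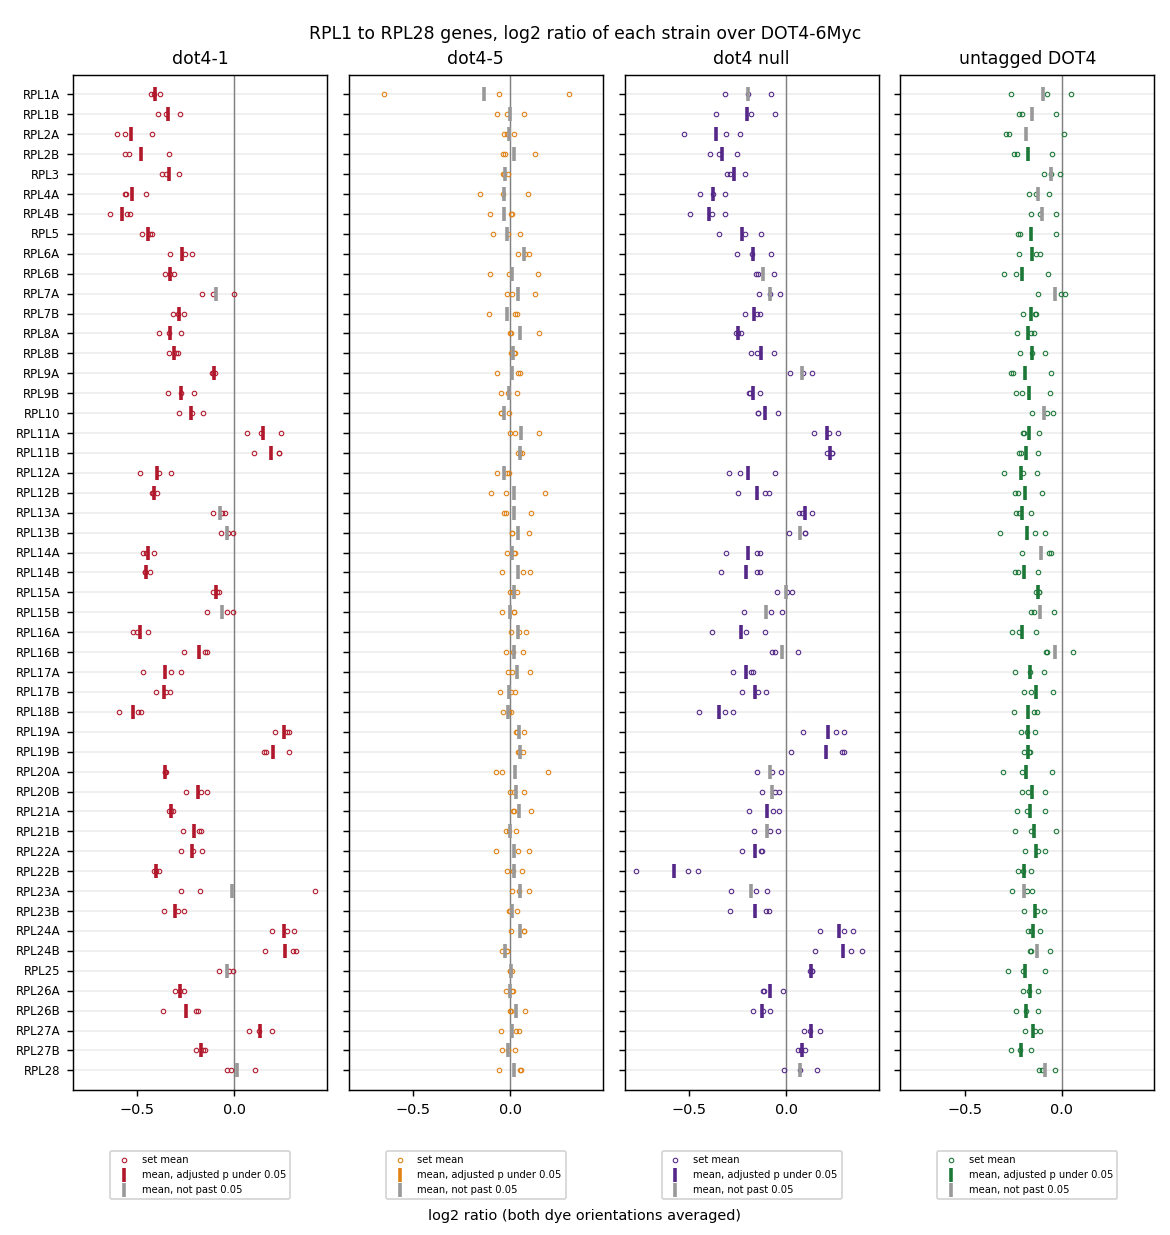
Log2 ratio over DOT4-6Myc of all but 1 of the 51 genes in the 4 strains, with genes down the page, the 3 set means as open points and their mean as a bar that is coloured where the adjusted p is under 0.05 and grey elsewhere. The dot4-1 means run between -0.58 and 0.26, those of dot4-5 lie close to 0, and the means of untagged DOT4 lie below 0.

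These genes had different values in the 2 dye orientations. With the strain in Cy5 the median over the 51 genes was -0.49 in dot4-1, -0.36 in dot4-5, -0.38 in the strain labelled null and -0.39 in untagged DOT4. With the strain in Cy3 it was -0.057 in dot4-1, 0.38 in dot4-5, 0.12 in the strain labelled null and 0.077 in untagged DOT4. The median size of the gap between orientations was 0.467, 0.742, 0.512 and 0.461 in dot4-1, dot4-5, the strain labelled null and untagged DOT4, against 0.117, 0.0963, 0.142 and 0.110 over all genes in the same strains. The averages therefore stand between values of opposite sign for many genes: both orientations had 1 sign in 33 of 51 genes in dot4-1, 0 in dot4-5, 14 in the strain labelled null and 9 in untagged DOT4. In dot4-5, where the gap was widest, the average of the orientations came to a median of 0.015. Across the 51 genes the orientations correlated at r = 0.57 in dot4-1 and 0.48 in the strain labelled null, and at -0.90 in dot4-5 and -0.80 in untagged DOT4. These are descriptions, since the genes share their arrays and are not independent replicates. Each average holds 3 arrays of each orientation, so an offset of the same size in both orientations cancels in it. That offset, the distance of the Cy3 value above the average, had a median over the 51 genes of 0.234 in dot4-1, 0.371 in dot4-5, 0.256 in the strain labelled null and 0.231 in untagged DOT4.

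A stricter reading asks for 1 sign on all 6 arrays of a strain. In dot4-1, 25 of the 51 genes were below 0 on all 6 arrays, all of them among the 37 that fell, while 31% of all genes were. They include both copies of RPL2, RPL4, RPL8, RPL14, RPL17 and RPL22. RPL3, RPL18B and RPL22B were below 0 on all 6 arrays of the strain labelled null, beside 22.5% of all genes, and in untagged DOT4 RPL16A, RPL22B and RPL26A were, beside 14.5%. In dot4-5, 0 were, beside 2.54%. No member was above 0 on all 6 arrays of any strain, so 0 of the 7 that rose in dot4-1 and 0 of the 10 that rose in the strain labelled null reached that mark. Over all genes 32.2% did in dot4-1, 21.8% in the strain labelled null, 14.3% in untagged DOT4 and 3.05% in dot4-5.

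**Figure D2:**
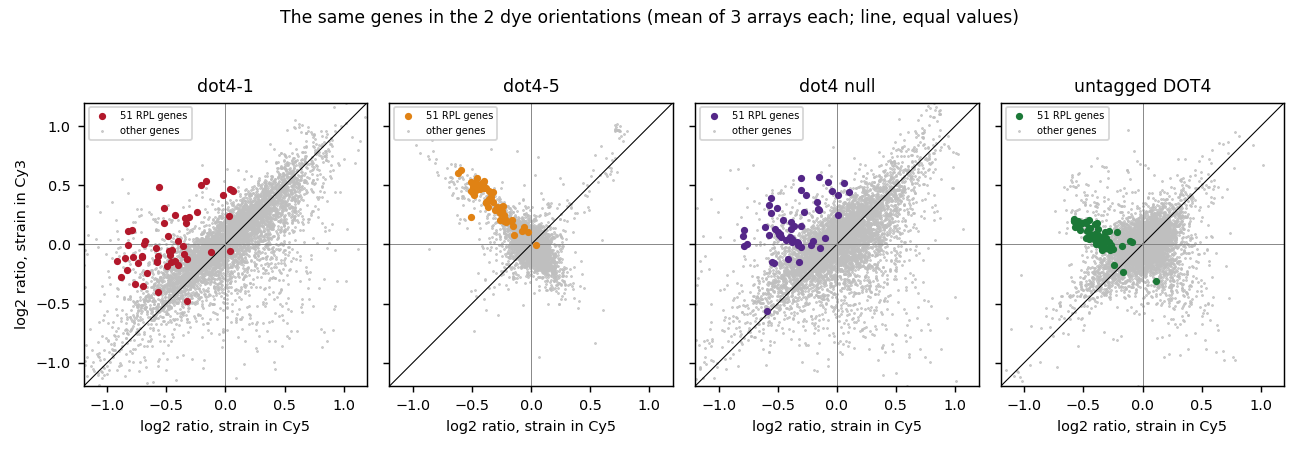
Log2 ratio over DOT4-6Myc with the strain in Cy5 (x axis) against the strain in Cy3 (y axis), as means of 3 arrays, for the 51 RPL genes (coloured) and all other genes (grey, axes limited to 1.2 each way), with a line of equal values. Most RPL genes lie above the line in each strain, at medians of -0.36 in Cy5 and 0.38 in Cy3 for dot4-5, and most fall below 0 on the x axis.

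The proteins of the peptidyl transferase centre, where peptide bonds form, are encoded here by RPL2A, RPL2B, RPL3, RPL10 and RPL28. Of these 5 genes 4 fell in dot4-1 and 4 in the strain labelled null, and RPL28 did not pass in either. That is 80% in each, beside 37.5% and 32.7% of all genes. RPL2A (YFR031C-A) was at -0.42, -0.57 and -0.60 in the sets of dot4-1, a mean of -0.53 ± 0.0957 (SD, n = 3, adjusted p = 1.1e-05), and at -0.24, -0.31 and -0.53 in those of the strain labelled null, a mean of -0.36 ± 0.149 (adjusted p = 0.000372). All 6 set means were below 0, and set 3 was the lowest in both strains. RPL2A was -0.92 with the strain in Cy5 and -0.14 with the strain in Cy3 in dot4-1, and -0.79 with the strain in Cy5 and 0.072 with the strain in Cy3 in the strain labelled null. RPL3 (YOR063W), whose protein reaches the catalytic centre, had sets at -0.28, -0.35 and -0.37 in dot4-1 (mean -0.34 ± 0.0472, adjusted p = 2.18e-06) and -0.30, -0.21 and -0.29 in the strain labelled null (mean -0.27 ± 0.0496, adjusted p = 2.08e-05). In both strains RPL3 was below 0 on all 6 arrays. RPL10 (YLR075W), for a protein that joins the subunit last, in the cytoplasm, was at -0.22 ± 0.0616 in dot4-1 (adjusted p = 0.000144) and -0.11 ± 0.0585 in the strain labelled null (adjusted p = 0.0187). The call in the strain labelled null was lost without set 2 (adjusted p = 0.109) and without set 3 (adjusted p = 0.0990). RPL28 (YGL103W) was at -0.019, -0.036 and 0.10 in the sets of dot4-1 and 0.16, 0.071 and -0.013 in those of the strain labelled null, on both sides of 0 in each.

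The polypeptide exit tunnel and its rim are lined by the products of RPL4A, RPL4B, RPL17A, RPL17B, RPL19A, RPL19B, RPL25, RPL26A and RPL26B. In dot4-1 6 of the 9 fell, 2 rose and RPL25 did not pass. Of the same 9, 6 fell and 3 rose in the strain labelled null. As shares, 66.7% fell and 22.2% rose in dot4-1, beside 37.5% and 35.9% of all genes. In the strain labelled null 66.7% fell and 33.3% rose, beside 32.7% and 30.7% of all genes. RPL4B (YDR012W) and RPL4A (YBR031W), whose protein sends an extension into the tunnel wall, were among the lowest of all 51 genes. RPL4B was at -0.54, -0.56 and -0.64 in dot4-1, a mean of -0.58 ± 0.0549 (1.49-fold lower, SE 0.0426, adjusted p = 2.38e-07), and at -0.31, -0.38 and -0.49 in the strain labelled null, a mean of -0.40 ± 0.0912 (adjusted p = 7.17e-06). RPL4A followed at -0.53 ± 0.0615 in dot4-1 and -0.38 ± 0.0666 in the strain labelled null (adjusted p = 1.07e-06 and 2.23e-05). In dot4-1 RPL4B was -0.88 with the strain in Cy5 and -0.27 with the strain in Cy3. With the strain labelled null in Cy5, RPL4B was at -0.78 and RPL4A at -0.76, and with it in Cy3 they were at -0.012 and 0.0047. In dot4-5 RPL4B was at -0.49 in Cy5 and 0.43 in Cy3 and averaged -0.030, above the values of the strain labelled null in each orientation.

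RPL19A (YBR084C-A) and RPL19B (YBL027W) rose in both strains. Their protein sits at the rim and also touches the small subunit. RPL19A was at 0.21, 0.27 and 0.28 in the sets of dot4-1 (mean 0.25 ± 0.0394, adjusted p = 0.00011) and 0.088, 0.30 and 0.26 in those of the strain labelled null (mean 0.22 ± 0.113, adjusted p = 0.000535). RPL19B was at 0.15, 0.28 and 0.16 in dot4-1 (mean 0.20 ± 0.0724, adjusted p = 0.00255) and 0.028, 0.30 and 0.29 in the strain labelled null (mean 0.20 ± 0.153, adjusted p = 0.0027). All 12 set means of the pair were above 0, with set 1 of the strain labelled null the lowest. With the strain in Cy5, RPL19A was at 0.039 in dot4-1 and 0.014 in the strain labelled null, and with it in Cy3 at 0.47 and 0.42. RPL19B averaged below 0 with the strain in Cy5, at -0.019 in dot4-1 and -0.040 in the strain labelled null. Its Cy3 arrays were at 0.331, 0.533 and 0.383 in dot4-1 and 0.248, 0.524 and 0.575 in the strain labelled null. In dot4-5, where it averaged 0.046, RPL19A was at -0.41 in Cy5 and 0.50 in Cy3. RPL25 (YOL127W), whose protein forms the docking site of the signal recognition particle at the tunnel exit, rose in the strain labelled null to 0.13 ± 0.00686 (adjusted p = 0.00686), with sets at 0.13, 0.14 and 0.12. This average came from -0.30 with the strain in Cy5 and 0.56 with the strain in Cy3. The call was lost with arrays scaled to a common spread (adjusted p = 0.0626) and in a fit of the strain labelled null alone (adjusted p = 0.0891). In dot4-1 RPL25 was at -0.037 ± 0.0355 (adjusted p = 0.366), from -0.56 in Cy5 and 0.49 in Cy3. RPL17A and RPL17B, also of the tunnel wall, fell by 0.36 each in dot4-1 and by 0.21 and 0.16 in the strain labelled null.

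The proteins that carry the 5S ribosomal RNA into the subunit, Rpl5 and Rpl11, come from genes that moved apart. RPL5 (YPL131W) was at -0.43, -0.48 and -0.44 in the sets of dot4-1 (mean -0.45 ± 0.0263, adjusted p = 4.81e-06) and -0.13, -0.21 and -0.34 in those of the strain labelled null (mean -0.23 ± 0.108, adjusted p = 0.00128). RPL11A (YPR102C) was at 0.063, 0.14 and 0.24 in dot4-1 (mean 0.15 ± 0.0898, adjusted p = 0.00813) and 0.14, 0.27 and 0.22 in the strain labelled null (mean 0.21 ± 0.0623, adjusted p = 0.001). RPL11B (YGR085C) was at 0.10, 0.23 and 0.23 in dot4-1 (mean 0.19 ± 0.0749, adjusted p = 0.000381) and 0.24, 0.24 and 0.21 in the strain labelled null (mean 0.23 ± 0.015, adjusted p = 0.000119). All 6 set means of RPL5 were below 0 and all 12 of RPL11A and RPL11B above it, so the genes did not overlap. The RPL11A call in dot4-1 was lost without set 3, at 0.099 (adjusted p = 0.0986), and with arrays scaled to a common spread, at 0.11 (adjusted p = 0.0740). The 2 orientations of RPL11B had opposite signs, -0.16 in Cy5 and 0.54 in Cy3 for dot4-1, and -0.072 and 0.53 for the strain labelled null. RPL11A was at -0.21 in dot4-1 and -0.15 in the strain labelled null with the strain in Cy5. Its Cy3 arrays were at 0.422, 0.480 and 0.603 in dot4-1 and 0.523, 0.665 and 0.523 in the strain labelled null. RPL5 stood on either side of 0 in the strain labelled null, at -0.60 in Cy5 and 0.15 in Cy3, and was below 0 in both in dot4-1, at -0.78 and -0.11.

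RPL24A (YGL031C) and RPL24B (YGR148C), which encode a late-joining protein that forms a bridge to the small subunit, had the largest rises of all 51 genes in both strains. RPL24B was at 0.16, 0.30 and 0.32 in dot4-1 (mean 0.26 ± 0.088, 1.2-fold, adjusted p = 0.000317) and 0.15, 0.39 and 0.34 in the strain labelled null (mean 0.29 ± 0.126, 1.22-fold, adjusted p = 0.000185). RPL24A was at 0.19, 0.30 and 0.27 in dot4-1 (mean 0.26 ± 0.0586, adjusted p = 6.85e-05) and 0.18, 0.35 and 0.30 in the strain labelled null (mean 0.27 ± 0.0874, adjusted p = 6.01e-05). All 12 set means were above 0. On single arrays, RPL24A was at 0, 0.11 and 0.087 in dot4-1 with the strain in Cy5 and at 0.38, 0.50 and 0.46 with the strain in Cy3. The same gene in the strain labelled null was at -0.010, 0.17 and 0.13 in Cy5 and 0.36, 0.52 and 0.46 in Cy3. The Cy5 arrays lay at or near 0 and the Cy3 arrays well above it, and both orientation means were above 0 in each strain. In dot4-5, where the mean was 0.048 (adjusted p = 1), RPL24A was at -0.36 in Cy5 and 0.45 in Cy3.

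The other roles were mostly lower, beside 37.5% of all genes falling in dot4-1, 32.7% in the strain labelled null and 14.6% in untagged DOT4. Both genes of the GTPase centre, RPL12A (YEL054C) and RPL12B (YDR418W), whose protein helps to bind the elongation factors, fell in dot4-1, the strain labelled null and untagged DOT4, where the calls of both were lost without set 2 (adjusted p = 0.0819 and 0.101) and that of RPL12B without set 1 (adjusted p = 0.105). The RPL12B call in the strain labelled null was lost without set 3 (adjusted p = 0.190). These falls are averages of orientations with opposite signs in the strain labelled null and untagged DOT4. On their Cy3 arrays RPL12B was at 0.331, 0.330 and 0.128 and at 0.140, 0.0585 and 0.306, and RPL12A averaged 0.10 and 0.15. On the Cy3 arrays of dot4-1 RPL12B was at 0.015, -0.066 and 0.028. RPL12A was at -0.39, -0.33 and -0.49 in dot4-1 (mean -0.40 ± 0.0804) and -0.057, -0.24 and -0.30 in the strain labelled null (mean -0.20 ± 0.124), with adjusted p = 1.32e-05 and 0.00389. RPL1A (YPL220W) and RPL1B (YGL135W), of the L1 stalk that guides the spent transfer RNA out, fell in dot4-1 to -0.41 ± 0.0236 and -0.34 ± 0.0587 (adjusted p = 0.0107 and 0.000136), and RPL1B alone passed in the strain labelled null, at -0.20 ± 0.152 (adjusted p = 0.00757), and not without set 3 (adjusted p = 0.1). RPL1A was uneven on other arrays. Its dot4-5 sets were at -0.65, -0.057 and 0.30, an SD of 0.481, and on set 2 of untagged DOT4 it was at 0.86 in Cy5 and -0.76 in Cy3. That spread enters the pooled standard error of RPL1A in dot4-1, 0.125, the largest among the 51 genes there.

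Of the 28 genes for other proteins of the subunit body, 22 fell and RPL27A rose in dot4-1, while 14 fell and RPL13A, RPL27A and RPL27B rose in the strain labelled null. As shares, 78.6% fell and 3.57% rose in dot4-1, beside 37.5% and 35.9% of all genes. In the strain labelled null 50% fell and 10.7% rose, beside 32.7% and 30.7% of all genes. RPL18B (YNL301C) was at -0.48, -0.50 and -0.59 in dot4-1 (mean -0.52 ± 0.0617, adjusted p = 3.6e-07) and -0.27, -0.31 and -0.45 in the strain labelled null (mean -0.34 ± 0.0917, adjusted p = 1.56e-05). It was below 0 on each of the 12 arrays of these strains. RPL14A and RPL14B fell by 0.45 each in dot4-1, and by 0.20 and 0.21 in the strain labelled null. The genes that did not pass in dot4-1 were RPL7A, RPL13A, RPL13B, RPL15B, RPL23A, RPL25 and RPL28. RPL23A had 1 set apart from the others: its sets were at -0.17, -0.27 and 0.42, and the Cy5 array of set 3 stood at 0.93, while its copy RPL23B was at -0.29, -0.26 and -0.36. Without set 3 RPL23A passed, at -0.22 (adjusted p = 0.00282). The rise of RPL13A in the strain labelled null to 0.10 ± 0.0349 (adjusted p = 0.0338) was lost without set 2 (0.075, adjusted p = 0.176) and without set 3 (0.10, adjusted p = 0.0749). The rise of RPL27A to 0.13 ± 0.0417 (adjusted p = 0.00648) was lost without set 2 (0.11, adjusted p = 0.0576). The rise of RPL27B to 0.080 ± 0.0185 (adjusted p = 0.0414) was lost without any 1 of the 3 sets, at adjusted p = 0.0822 to 0.105.

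RPL22B (YFL034C-A) had the lowest value of the 51 genes in the strain labelled null, and the 2 orientations gave it there at nearly the same level. Rpl22 is a protein of the subunit surface that cells can do without. In the strain labelled null RPL22B was at -0.75, -0.47 and -0.55 on the Cy5 arrays of sets 1, 2 and 3 and at -0.79, -0.44 and -0.46 on the Cy3 arrays. All 6 arrays were well below 0 and the orientations overlapped. The mean was -0.58 ± 0.171 (SD, n = 3; 1.49-fold lower, SE 0.0499, adjusted p = 1.28e-06). In dot4-1 it was at -0.30, -0.41 and -0.28 in Cy5 and -0.53, -0.40 and -0.49 in Cy3, a mean of -0.40 ± 0.0138 (adjusted p = 1.5e-05). In untagged DOT4 it was at -0.10, -0.17 and -0.21 in Cy5 and -0.30, -0.15 and -0.24 in Cy3, a mean of -0.20 ± 0.0332 (adjusted p = 0.0124), a call that was lost without set 1 (adjusted p = 0.0584) and without set 3 (adjusted p = 0.0797). In dot4-5 its sets were at -0.017, 0.059 and 0.013, on both sides of 0. RPL22B thus fell in all strains but dot4-5, on all 18 arrays of those 3 strains.

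Untagged DOT4 showed a small shift below 0 in the average of the orientations. The orientations themselves stood apart, at medians over the 51 genes of -0.39 in Cy5 and 0.077 in Cy3, with 1 sign in 9 genes. The 5 genes with the largest falls were RPL27B, RPL12A, RPL13A, RPL16A and RPL6B. RPL27B (YDR471W) was at -0.22, -0.26 and -0.16 (mean -0.21 ± 0.0511, 1.16-fold lower, adjusted p = 0.000506) and RPL13A (YDL082W) at -0.23, -0.22 and -0.16 (mean -0.21 ± 0.0394, adjusted p = 0.00142). RPL12A was at -0.21 ± 0.085, RPL16A (YIL133C) at -0.20 ± 0.0661 and RPL6B (YLR448W) at -0.20 ± 0.118 (adjusted p = 0.00828, 0.0072 and 0.0104). Each of their 15 set means was below 0. The call was lost for RPL12A without set 2 (adjusted p = 0.0819), for RPL16A without set 3 (adjusted p = 0.0641), and for RPL6B without set 1 (adjusted p = 0.0944) or set 2 (adjusted p = 0.0705). Only RPL16A among them was below 0 in both orientations, at -0.24 with the strain in Cy5 and -0.17 with the strain in Cy3, while RPL27B was at -0.48 in Cy5 and 0.052 in Cy3. The genes with 1 copy ranged from RPL25 at -0.19 ± 0.0949 (adjusted p = 0.00249) and RPL5 at -0.16 ± 0.11 (adjusted p = 0.0304) to RPL10, RPL28 and RPL3 at -0.092, -0.086 and -0.054, which did not pass. The RPL5 call was lost without set 1 (adjusted p = 0.170) or set 2 (adjusted p = 0.193). The count of 37 falls became 22 without set 1, 9 without set 2 and 30 without set 3. On single orientations it was 47 with the strain in Cy5, and 1 with it in Cy3, where 11 of the 51 passed as higher.

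Among the other body genes, copies mostly fell together in dot4-1 in the average of the orientations. RPL8A and RPL8B, whose protein helps to process the ribosomal RNA, fell in dot4-1 to -0.33 ± 0.0578 and -0.31 ± 0.0254 (adjusted p = 7.53e-06 and 6.18e-06), and in the strain labelled null to -0.25 ± 0.013 and -0.13 ± 0.0616 (adjusted p = 0.000132 and 0.00585). RPL20A and RPL20B fell in dot4-1 to -0.36 ± 0.0015 and -0.19 ± 0.0555 (adjusted p = 8.86e-05 and 0.000474), and did not pass in the strain labelled null, at -0.081 and -0.073. In the strain labelled null the RPL8B call was lost without set 2 (adjusted p = 0.0564). RPL21A and RPL21B fell in dot4-1 to -0.33 ± 0.00925 and -0.21 ± 0.0506 (adjusted p = 1.15e-05 and 0.000681). For both RPL20 and RPL21 the dot4-1 set means of each copy lay below 0, and copy A averaged lower. On the Cy3 arrays of dot4-1, however, RPL20A was at 0.088, 0.077 and 0.165 and RPL21A at 0.017, 0.055 and 0.024. RPL20B was there at 0.037, 0.134 and -0.082 and RPL21B at 0.082, 0.133 and -0.002. RPL20A minus RPL20B was -0.42 in Cy5 and 0.080 in Cy3, and RPL21A minus RPL21B -0.20 and -0.039. RPL13A and RPL13B did not pass in dot4-1, at -0.075 and -0.037, and both fell in untagged DOT4, to -0.21 ± 0.0394 and -0.18 ± 0.122 (adjusted p = 0.00142 and 0.00855), a call that RPL13B lost without set 2 (adjusted p = 0.0940). RPL15A, whose protein lies deep in the subunit core, fell in dot4-1 to -0.093 ± 0.0171 (adjusted p = 0.012, or 0.0705 without set 3), while RPL15B was at -0.063 ± 0.07 (adjusted p = 0.198) and did not pass in any strain. Without set 2 of the strain labelled null RPL15B passed there (adjusted p = 0.0297). RPL9A and RPL9B, of the base of a stalk, fell in dot4-1 to -0.11 ± 0.00846 and -0.28 ± 0.0678 (adjusted p = 0.0412 and 5.35e-05), and in the strain labelled null RPL9A was at 0.081 and RPL9B at -0.17, of which RPL9B passed (adjusted p = 0.00263). The RPL9A call in dot4-1 was lost without any 1 of the sets, at adjusted p = 0.0991 to 0.117. On the Cy3 arrays of dot4-1 RPL9A was above 0, at 0.335, 0.284 and 0.296, and so was RPL15A, at 0.287, 0.230 and 0.217. RPL8A, RPL8B and RPL9B were below 0 on all 6 arrays of dot4-1.

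In dot4-5 the 51 means lay between -0.14 and 0.07. RPL24A was at 0.0060, 0.070 and 0.069 in the 3 sets, RPL4B at 0.0040, 0.0095 and -0.10 and RPL5 at -0.013, 0.048 and -0.086, with set 3 of RPL4B the farthest from 0. RPL4B, whose protein lines the exit tunnel, was at -0.55, -0.57 and -0.36 on the Cy5 arrays and 0.56, 0.59 and 0.16 on the Cy3 arrays. Its orientations did not overlap, and their signs were opposite. The median orientation gap was widest in this strain, at 0.742, and the median of the averages was nearest to 0.

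Comparing strains with each other sets arrays of the same orientation side by side, and all strains were measured against the same DOT4-6Myc strain. For dot4-1 minus dot4-5, 35 genes were lower and 4 higher at a median of -0.28, beside 31.4% of all genes lower and 29.6% higher (61% in all). The median was -0.19 with the strains in Cy5 and -0.38 with them in Cy3, and 38 genes were below 0 in both. RPL4B differed by -0.55 (SE 0.0602, adjusted p = 1.86e-05). The 4 higher were RPL11B, RPL19A, RPL24A and RPL24B, of which RPL24B was above 0 in both orientations and differed by 0.29 (adjusted p = 0.00293). With arrays scaled to a common spread the counts were 16 lower and 1 higher. RPL4B was at -0.58 in dot4-1 and -0.030 in dot4-5, and RPL24B at 0.26 and -0.026.

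For the strain labelled null minus dot4-1, 10 genes were higher and 0 lower at a median of 0.14, beside 4.99% of all genes higher and 4.83% lower (9.81% in all). They were RPL8B, RPL12B, RPL14A, RPL14B, RPL16A, RPL17B, RPL20A, RPL21A, RPL26A and RPL27B, from 0.18 for RPL8B to 0.27 for RPL20A, and each was nearer to 0 in the strain labelled null except RPL27B, which was on the other side of it. The median was 0.11 with the strains in Cy5 and 0.16 with them in Cy3, and 41 genes were above 0 in both. The count depended on the processing. It was 0 without centring and 0 with scaled arrays, and it ranged from 1 to 17 when 1 set was left out: 4, 1 and 2 without sets 1, 2 and 3 of dot4-1, and 2, 2 and 17 without those of the strain labelled null.

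Against untagged DOT4, the strain labelled null had 14 genes higher and 6 lower at a median of 0.011, beside 27.7% of all genes higher and 27.2% lower (54.9% in all). The 14 were both copies of RPL11, RPL13, RPL19, RPL24 and RPL27 with RPL9A, RPL15A, RPL25 and RPL28, led by RPL24A at 0.42 (adjusted p = 3.55e-05) and RPL24B at 0.42 (adjusted p = 0.000193). All 14 were above 0 in each orientation. The 6 lower included RPL3, RPL4A, RPL4B, RPL18B and RPL22B, the last at -0.38 (adjusted p = 0.00062). The split became 14 and 1 without centring and 17 and 1 with scaled arrays. For dot4-1 minus untagged DOT4, 9 genes were higher and 24 lower at a median of -0.13, beside 31.6% of all genes higher and 31.1% lower (62.8% in all). RPL19A was the highest at 0.43 (adjusted p = 4.09e-05) and RPL4B the lowest at -0.48 (adjusted p = 2.9e-05). This split was 10 higher and 6 lower without centring and 11 and 2 with scaled arrays. Uncentred, the medians of all genes in the sets of untagged DOT4 were -0.063, -0.057 and -0.13. The 24 lower genes became 15 without set 3 of dot4-1 and 14 without set 3 of untagged DOT4.

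The copies of a duplicated gene stood close together. The median size of the difference between copies A and B over the 23 pairs was 0.0505 in dot4-1, 0.0273 in dot4-5, 0.029 in the strain labelled null and 0.0242 in untagged DOT4. Over the 1252 other pairs of these genes it was 0.222, 0.0287, 0.182 and 0.0369 in the same strains. Both copies passed in 19 pairs in dot4-1, in the same direction in 18 of them, in 13 pairs in the strain labelled null and 14 in untagged DOT4, with all of these in the same direction, and in 0 in dot4-5. Of all genes taken singly, 73.4% passed in dot4-1, 63.4% in the strain labelled null, 25.8% in untagged DOT4 and 1.03% in dot4-5. RPL24A and RPL24B, for example, differed by -0.0033 ± 0.04 in dot4-1 (SD, n = 3). Copies with nearly the same coding sequence may share signal on an array, and equal transcript levels and shared signal cannot be told apart here.

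In 3 pairs the copies differed by at least 0.3 with 1 sign in all 3 sets of a strain. These differences are given without a test, because the exact sign-flip test over 3 sets cannot go below p = 0.25. RPL22A minus RPL22B was 0.65, 0.32 and 0.28 in the sets of the strain labelled null (mean 0.42 ± 0.202), with RPL22A at -0.16 and RPL22B at -0.58. Set 1 had the largest difference. Over the 3 sets the difference averaged 0.29 in Cy5 and 0.54 in Cy3. In dot4-1 it was 0.18 ± 0.0666, from -0.025 in Cy5 and 0.39 in Cy3. RPL16A minus RPL16B, 2 copies of a protein of the subunit body, was -0.18, -0.36 and -0.37 in the sets of dot4-1 (mean -0.30 ± 0.104) and stood in both orientations, at -0.22 in Cy5 and -0.39 in Cy3. RPL16A was the lower copy in the other strains that moved too, at -0.21 ± 0.0875 in the strain labelled null and -0.17 ± 0.134 in untagged DOT4, with 1 sign in all sets, and the copies differed by 0.023 ± 0.045 in dot4-5. RPL27A minus RPL27B was 0.27, 0.34 and 0.29 in dot4-1 (mean 0.30 ± 0.0367). This was the 1 pair whose copies passed in opposite directions, RPL27A at 0.13 ± 0.0596 (adjusted p = 0.00466) and RPL27B at -0.17 ± 0.0258 (adjusted p = 0.000364). The RPL27A call was lost without set 2 (0.10, adjusted p = 0.0560), and the difference was 0.55 in Cy5 but 0.055 in Cy3. With arrays scaled to a common spread the differences were -0.19 for RPL16 and 0.17 for RPL27 in dot4-1, and neither RPL27A (adjusted p = 0.0636) nor RPL27B (adjusted p = 0.0521) passed. With the strain in Cy3 alone RPL27B passed as higher, at 0.18 (adjusted p = 0.00455).

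**Figure D3:**
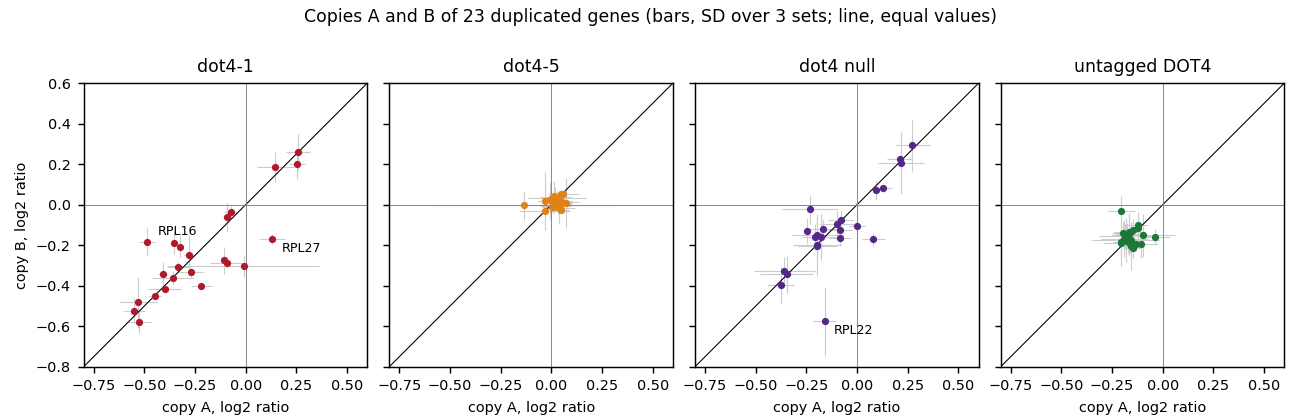
Log2 ratio of copy A (x axis) against copy B (y axis) of the 23 duplicated genes in each strain, with bars for the SD over 3 sets and a line of equal values. Most pairs lie near the line, and RPL16 and RPL27 in dot4-1 and RPL22 in the strain labelled null stand off it by 0.30 or more.

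The genes that help these proteins into the ribosome rose in dot4-1 and the strain labelled null, beside client genes that fell in some families and rose in others. The 12 dedicated chaperones, placeholders and release factors all rose in dot4-1, at a median of 0.63, and all rose in the strain labelled null, at a median of 0.65. In untagged DOT4 11 of 12 fell at a median of -0.33, and in dot4-5 0 of 12 passed, at a median of 0.0048. Of all genes, 35.9% rose in dot4-1, 30.7% rose in the strain labelled null, 14.6% fell in untagged DOT4 and 1.03% passed in dot4-5. REI1, which serves in the cytoplasmic steps of 60S maturation, was at 0.94, 0.89 and 0.88 in dot4-1 (mean 0.90 ± 0.0317, adjusted p = 3.69e-08) and 0.75, 0.85 and 0.94 in the strain labelled null (mean 0.85 ± 0.0961, adjusted p = 7.29e-08), and did not pass in untagged DOT4, at -0.13 ± 0.145 (adjusted p = 0.0811). ACL4, for Rpl4, was at 0.79 in dot4-1, 0.68 in the strain labelled null and -0.35 in untagged DOT4, while RPL4A was at -0.53, -0.38 and -0.12 there. RRB1, for Rpl3, was at 0.59, 0.63 and -0.38 in these strains, and RPL3 at -0.34, -0.27 and -0.054. SYO1, for Rpl5 and Rpl11, was at 0.57, 0.61 and -0.34, with RPL5 at -0.45, -0.23 and -0.16 and RPL11B at 0.19, 0.23 and -0.19. SQT1, for Rpl10, was at 0.26, 0.39 and -0.26, and BCP1, for Rpl23, at 0.69, 0.70 and -0.38. The export adaptor gene NMD3 was at 0.29, 0.39 and -0.45, and LSG1, for the GTPase that acts in its release, at 0.42, 0.47 and -0.38. RLP24, the placeholder that Rpl24 replaces, was at 0.78, 0.83 and -0.30, and RPL24A at 0.26, 0.27 and -0.15. All of these helper genes passed in these 3 strains, except REI1 in untagged DOT4. The calls in untagged DOT4 of ACL4 and RLP24 were lost without set 3 (adjusted p = 0.0897 and 0.0569), and REI1 passed there without set 2 (adjusted p = 0.0152). The median of the 12 genes in dot4-1 was 0.56 in Cy5 and 0.66 in Cy3, in the strain labelled null 0.64 and 0.65, and in untagged DOT4 -0.36 and -0.28, and each of the 12 had 1 sign in both orientations in all 3 strains.

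Of 5 enzymes that methylate these proteins, RKM2, RKM5, RMT2 and HPM1 rose in dot4-1 and in the strain labelled null, and RKM1 did not pass in any strain. That is 80% of the list in each, beside 35.9% and 30.7% of all genes. RMT2, an arginine methyltransferase that acts on Rpl12, was at 0.70 ± 0.0992 in dot4-1 and 0.67 ± 0.229 in the strain labelled null (adjusted p = 7.07e-06 and 1.63e-05). In untagged DOT4 RMT2, RKM2 and HPM1 fell, RMT2 to -0.46 ± 0.195 (adjusted p = 0.0013), and 0 of 5 passed in dot4-5. The falls in untagged DOT4 are 60% of the list, beside 14.6% of all genes, and 1.03% of all genes passed in dot4-5. The RKM2 call in untagged DOT4 was lost without set 2 (adjusted p = 0.0683) and without set 3 (adjusted p = 0.0673).

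Of 16 regulators of ribosomal protein genes, 7 rose and 4 fell in dot4-1, 8 rose and 4 fell in the strain labelled null, 1 rose and 2 fell in untagged DOT4, and 0 passed in dot4-5. As shares these are 43.8% higher and 25% lower in dot4-1, beside 35.9% and 37.5% of all genes, 50% and 25% in the strain labelled null, beside 30.7% and 32.7%, and 6.25% and 12.5% in untagged DOT4, beside 11.2% and 14.6%. The list as a whole thus lay near the background, and the values below are those of single genes. The activator genes RAP1, FHL1 and IFH1 rose in dot4-1, to 0.53 ± 0.173, 0.25 ± 0.0235 and 0.43 ± 0.114 (adjusted p = 3.61e-06, 0.000268 and 9.57e-05), and in the strain labelled null, to 0.52 ± 0.0968, 0.12 ± 0.138 and 0.21 ± 0.199 (adjusted p = 5.96e-06, 0.0364 and 0.018). The FHL1 and IFH1 calls in the strain labelled null were lost without set 2 (adjusted p = 0.151 and 0.110) and without set 3 (adjusted p = 0.326 and 0.175). CRF1, a corepressor that competes with Ifh1 for Fhl1, fell to -0.36 ± 0.0563 in dot4-1 and -0.42 ± 0.0942 in the strain labelled null (adjusted p = 1.06e-05 and 4.46e-06). The related repressors of ribosome biogenesis genes DOT6 and TOD6 moved apart: DOT6 was at -1.18, -1.17 and -1.06 in dot4-1 and -0.52, -0.59 and -0.62 in the strain labelled null, and TOD6 at 0.46, 0.57 and 0.62 in dot4-1 and 0.44, 0.76 and 0.74 in the strain labelled null. In untagged DOT4 both fell, DOT6 to -0.19 ± 0.0807 and TOD6 to -0.32 ± 0.0907 (adjusted p = 0.00429 and 0.0023). ABF1, a general regulatory factor that binds some of these promoters, rose in all 3 strains, to 0.52 in dot4-1, 0.34 in the strain labelled null and 0.29 in untagged DOT4. HMO1, whose protein binds many of them, fell in dot4-1, to -0.22 ± 0.0794 (adjusted p = 0.000245), and did not pass in the strain labelled null, at 0.082 (adjusted p = 0.0767). SCH9 and ESA1 rose and STB3 fell in dot4-1 and the strain labelled null, SFP1 rose and TOR2 fell in the strain labelled null, where the TOR2 call was lost without set 1 (adjusted p = 0.136), and TOR1, KOG1 and RPD3 did not pass in any strain.

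**Figure D4:**
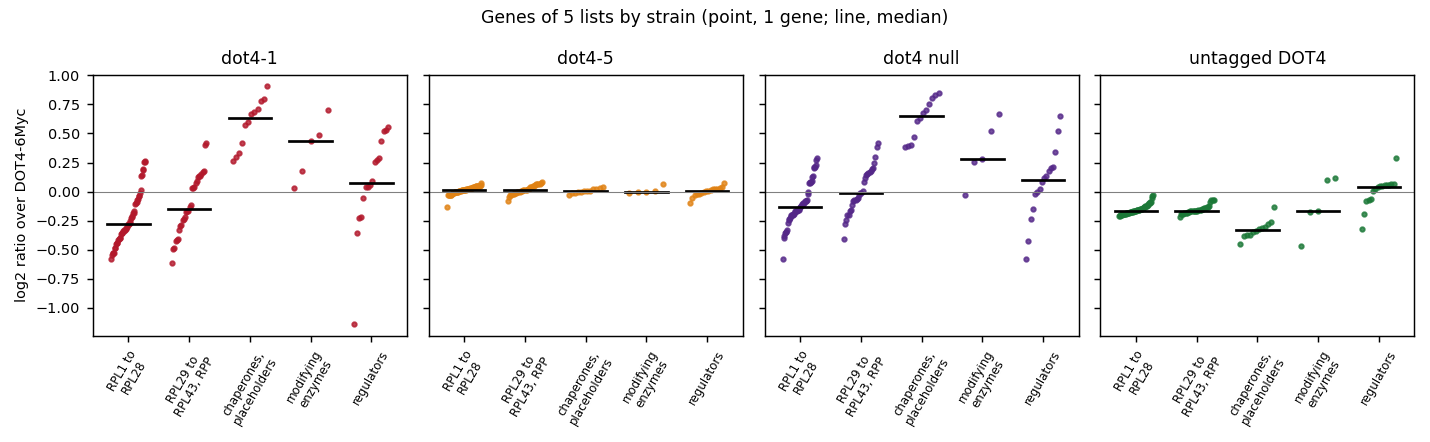
Log2 ratio over DOT4-6Myc of the genes of 5 lists in the 4 strains, with a point for each gene and a line at the median. In dot4-1 and the strain labelled null the RPL1 to RPL28 genes have medians of -0.28 and -0.13 and their chaperones and placeholders medians of 0.63 and 0.65, while in untagged DOT4 both lists lie below 0 at medians of -0.16 and -0.33.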

How the data were processed

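Log2 ratios of 24 arrays were used, 6 for each of 4 strains against DOT4-6Myc. The authors' deposited table holds log2 ratios of 6205 open reading frames (83 empty cells among 148920). No label states the scale, and the values settled it, as log2 of 3 filled 19 cells against a mean of 0.3 at neighbouring values. The sources used here do not give the authors' background subtraction, normalization or array type. The median of an array was subtracted from it, all signs were turned, and the 2 orientations of a set were averaged. In R 4.3.3, limma 3.58.1 (lmFit, eBayes) estimated 1 mean per strain from 12 set means, leaving 8 residual degrees of freedom. Genes needed at least 2 of 3 sets in each strain, which kept 6195 and removed 10. All 51 RPL genes had values on every array. P-values are two-sided and adjusted by Benjamini-Hochberg over the genes of each of 8 comparisons. Set numbers paired dot4-1 and the strain labelled null by the data alone in sets 1 and 2. The deviations of same-numbered sets correlated at 0.672, 0.509 and 0.317 across genes in sets 1, 2 and 3. Other pairs of strains ranged from -0.303 to 0.322, so set 3 did not stand apart from them. Genes were named by rule: the 5 largest rises and falls of each strain with 1 sign in all sets, pairs whose copies differed by at least 0.3, genes with 1 copy, list genes that passed and UBP10. Other RPL genes were named by role or pair, or after their values were seen (RPL1A, RPL7, RPL8, RPL9, RPL13B, RPL14, RPL15, RPL17, RPL20, RPL21 and RPL23). Of the 51 genes, 1 is counted but not reported singly here. The genes and the 4 other lists were chosen with earlier results of these data known. All 114 IDs matched the reference annotation, in which DRG1 is named AFG2. The fit was tested on simulated data. Alternatives covered centring, scaling, 1 dye orientation, a set block, no filter, each strain alone and each set left out. Plots used matplotlib 3.10.9 in Python 3.11.15.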

Additional observations from a re-analysis of the deposited data

Results flagged for a closer look

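Some of the genes named above passed in opposite directions in 2 strains. Genes chosen in this way are nearly bound to pass the test of the difference in the same fit. The adjusted p-values of the differences below therefore add no separate support. RPL27B was at 0.080 in the strain labelled null and -0.17 in dot4-1, a difference of 0.25 (limma, adjusted p = 0.00538). Its rise was lost without any 1 set, with scaled arrays (adjusted p = 0.121) and in a fit of that strain alone (adjusted p = 0.272). Neither without centring nor with scaled arrays was any of the RPL1 to RPL28 genes higher in the strain labelled null than in dot4-1.

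Between the strain labelled null, given first, and untagged DOT4 there were 9 such genes. The bridge gene RPL24A stood at 0.27 and -0.15, a difference of 0.42 (adjusted p = 3.55e-05). Of the 5S particle, RPL11B stood at 0.23 and -0.19, a difference of 0.41 (adjusted p = 1.97e-05), and RPL11A at 0.21 and -0.17, a difference of 0.38 (adjusted p = 0.000192). Of the tunnel rim, RPL19A stood at 0.22 and -0.18, a difference of 0.39 (adjusted p = 9.24e-05), RPL19B at 0.20 and -0.18, a difference of 0.38 (adjusted p = 0.000475), and RPL25 at 0.13 and -0.19, a difference of 0.32 (adjusted p = 0.000186). Of the subunit body, RPL13A stood at 0.10 and -0.21, a difference of 0.30 (adjusted p = 0.000289), RPL27A at 0.13 and -0.15, a difference of 0.28 (adjusted p = 0.000484), and RPL27B at 0.080 and -0.21, a difference of 0.29 (adjusted p = 0.000133). The rises of RPL13A and RPL25 were lost with scaled arrays (adjusted p = 0.205 and 0.0626). In a fit of the strain labelled null alone those of RPL13A, RPL25, RPL19B and RPL27A were lost (adjusted p = 0.201, 0.0891, 0.0571 and 0.0991).

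Between dot4-1, given first, and untagged DOT4 there were 6. RPL24A stood at 0.26 and -0.15, a difference of 0.41 (adjusted p = 4.46e-05). RPL19A stood at 0.25 and -0.18, a difference of 0.43 (adjusted p = 4.09e-05), and RPL19B at 0.20 and -0.18, a difference of 0.37 (adjusted p = 0.000459). RPL11B stood at 0.19 and -0.19, a difference of 0.37 (adjusted p = 4.02e-05), and RPL11A at 0.15 and -0.17, a difference of 0.32 (adjusted p = 0.000653). RPL27A stood at 0.13 and -0.15, a difference of 0.28 (adjusted p = 0.000393). The dot4-1 rises of RPL11A and RPL27A were lost with scaled arrays (adjusted p = 0.0740 and 0.0636). The rises of RPL24A, RPL19A and RPL27A were above 0 in both orientations, and those of the other genes here had opposite signs in the 2 orientations. The falls of RPL24A, RPL19B, RPL11A and RPL27A in untagged DOT4 were each lost without at least 1 set, at adjusted p = 0.0658 to 0.0913.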

How the results depend on the processing

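The dye orientation was the choice that changed most. Shares of all genes that passed are given only for the fit on centred, averaged orientations. Counts under other settings, here and in the other sections, have no such share beside them. They cannot be read as particular to these genes. In dot4-1, 0 genes were higher with the strain in Cy5 alone, and with the strain in Cy3 alone 15 were higher and 14 lower. In dot4-5, 44 were lower in Cy5 and 43 higher in Cy3. The strain labelled null had 0 higher in Cy5, and 23 higher and 3 lower in Cy3, and in untagged DOT4 11 were higher and 1 lower in Cy3. Of the strain differences, the strain labelled null over dot4-1 had 5 higher in Cy5 and 2 in Cy3, the strain labelled null over untagged DOT4 had 2 lower in Cy3, and dot4-1 over dot4-5 had 0 higher in Cy3. The RPL27A minus RPL27B difference in dot4-1 was 0.55 in Cy5 and 0.055 in Cy3. Among the named genes, calls turned sign only in these 2 settings, and RPL genes outside the naming rule, such as RPL20A and RPL21A in dot4-1, also turned in them. With the strain in Cy5 the named genes that turned were, in dot4-1, RPL19B (-0.019), RPL11B (-0.16) and RPL11A (-0.21), and in the strain labelled null RPL19B (-0.040), RPL11B (-0.072), RPL11A (-0.15), RPL27B (-0.26), RPL13A (-0.17) and RPL25 (-0.30). With the strain in Cy3 they were, in dot4-1, RPL27B (0.18) and RPL6B (0.12), in the strain labelled null RPL2A (0.072), RPL4A (0.0047), RPL12A (0.10) and RPL5 (0.15), and in untagged DOT4 RPL24A (0.076), RPL19A (0.061), RPL19B (0.12), RPL11B (0.16), RPL11A (0.20), RPL27B (0.052), RPL12A (0.15), RPL13A (0.046), RPL6B (0.12), RPL22A (0.018), RPL5 (0.14) and RPL25 (0.20). The cause was not tested.

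Without centring, 0 genes were higher in the strain labelled null than in dot4-1, 1 was lower there than in untagged DOT4, and 6 were lower in dot4-1 than in untagged DOT4. With arrays scaled to a common spread these counts were 0, 1 and 2, the strain labelled null had 18 falls, and dot4-1 over dot4-5 had 1 higher and 16 lower. The RPL16A minus RPL16B and RPL27A minus RPL27B differences in dot4-1 were then -0.19 and 0.17. In a fit of the strain labelled null alone, 5 rose and 17 fell. Exchanging the strain names only for the null arrays, an alternative added after seeing the data, gave 36 genes higher and 7 lower in it than in dot4-1, and 36 higher and 0 lower than in untagged DOT4. Leaving out each set in turn gave 9 to 30 falls in untagged DOT4, 1 to 17 genes higher in the strain labelled null than in dot4-1, and 14 to 23 lower in dot4-1 than in untagged DOT4. With the replicate block, where set numbers pair arrays of different strains, there were 7 rises and 36 falls in dot4-1 and 11 genes higher in the strain labelled null than in dot4-1. With scaled arrays 10 of 96 named values lost their call (adjusted p = 0.0521 to 0.205): RPL6B, RPL11A, RPL16B, RPL27A and RPL27B in dot4-1, and RPL10, RPL13A, RPL22A, RPL25 and RPL27B in the strain labelled null. In fits of 1 strain alone 9 did (adjusted p = 0.0506 to 0.272): RPL10, RPL12A, RPL13A, RPL19B, RPL22A, RPL25, RPL27A and RPL27B in the strain labelled null and RPL5 in untagged DOT4. Of the 96 the block changed the call of RPL27B in the strain labelled null (adjusted p = 0.0586), RPL6B there (adjusted p = 0.0444) and RPL24B in untagged DOT4 (adjusted p = 0.0405), and of no other. Without the filter all 96 kept their call. Among the other lists, added after seeing the data, scaled arrays gave 5 regulators that rose in the strain labelled null, where 8 did before, and 4 rises and 11 falls of RPL29 to RPL43 and the P proteins in dot4-1. Each set has 2 arrays, so small shifts such as those of untagged DOT4 are limited by the spread between sets.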

Other observations

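The other proteins of the large subunit, RPL29 to RPL43 and the P proteins of its stalk (30 genes), also moved in both directions. In dot4-1 9 rose and 17 fell at a median of -0.15, in the strain labelled null 12 rose and 8 fell at a median of -0.012 (5 fell without set 3), in untagged DOT4 0 rose and 23 fell at a median of -0.16 (7 without set 2 and 11 without set 3), and in dot4-5 0 passed at a median of 0.013. As shares, 30% rose and 56.7% fell in dot4-1, beside 35.9% and 37.5% of all genes. In the strain labelled null 40% rose and 26.7% fell, beside 30.7% and 32.7%, which is near the background. In untagged DOT4 76.7% fell, beside 14.6% of all genes falling and 11.2% rising. In dot4-5 1.03% of all genes passed. The acidic stalk protein gene RPP2A was the lowest in dot4-1, at -0.44, -0.71 and -0.69 in the sets (mean -0.61 ± 0.149, adjusted p = 2.4e-06), and was at -0.40 ± 0.159 in the strain labelled null (adjusted p = 0.000104). It was at -0.75 in Cy5 and -0.48 in Cy3 in dot4-1. All 5 P protein genes fell in dot4-1 and in the strain labelled null. In the latter the RPP1A and RPP1B calls were lost without set 3 (adjusted p = 0.0921 and 0.104). With scaled arrays both were lost too (adjusted p = 0.271 and 0.149). A fit of that strain alone lost RPP0, RPP1B and RPP2B (adjusted p = 0.0502 to 0.0772). With that strain in Cy3, RPP0 and RPP1A were above 0, at 0.14 and 0.15. RPP1B and RPP2B were there at -0.00067 and -0.022. RPL35A and RPL35B, whose protein lies at the rim of the exit tunnel, rose most: RPL35B was at 0.30, 0.51 and 0.44 in dot4-1 (mean 0.41 ± 0.105, adjusted p = 5.02e-06) and RPL35A at 0.33, 0.43 and 0.49 in the strain labelled null (mean 0.41 ± 0.0822, adjusted p = 3e-06). Both genes were above 0 in both orientations of both strains.

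These 30 genes shared the dye gap. Their median was -0.32 in Cy5 and 0.098 in Cy3 in dot4-1, -0.23 and 0.31 in dot4-5, -0.19 and 0.23 in the strain labelled null, and -0.36 and 0.051 in untagged DOT4. The 2 genes of RPL1 to RPL28 that overlap another annotated gene are RPL7A and RPL7B, which hold the small nucleolar RNA genes SNR39 and SNR59. RPL7A was at -0.094, -0.085 and -0.037 in dot4-1, the strain labelled null and untagged DOT4 and did not pass in any (it passed in dot4-1 without set 1, adjusted p = 0.0255), while RPL7B fell in each (in untagged DOT4 not without set 2, adjusted p = 0.0607), to -0.29, -0.17 and -0.16.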
